A study of Heterocephalus glaber and Mus musculus with 6 samples.

Results

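Genes of the nuclear envelope bridge were read in mouse keratinocytes, the cells that build the epidermis. They comprise the 4 nesprin genes Syne1, Syne2, Syne3 and Syne4, the SUN genes Sun1 and Sun2, the lamin genes Lmna, Lmnb1 and Lmnb2, and Emd, which encodes emerin. They were chosen by symbol, and Syne1 was taken because its count relative to library size was among the highest of all named genes, so its level is given below as a description. Of these 10 genes, 4 had a row under their own identifier in the mouse tables: Syne1, Syne3, Syne4 and Lmnb2. The other 6 (Syne2, Sun1, Sun2, Lmna, Lmnb1 and Emd) had no row and were not analysed here. All 4 genes with a row passed the mean of 10 counts used below to call a gene measured, as did 9965 of the 42321 mouse genes that had a row and a symbol of their own.

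The study profiled keratinocytes from dorsal skin of naked mole-rats aged 6 to 7 months and of FVB mice aged 7 to 8 weeks, with 3 libraries per species and no treatment. Epidermis was freed with Dispase II, dissociated with TrypLE Express and sorted for CD49f, the integrin alpha-6 subunit of basal keratinocytes, which some other skin cells also carry. The libraries were directional and made after depletion of ribosomal RNA. The identifiers of the naked mole-rat tables match none of these mouse genes, so only the 3 mouse libraries are described. They form a single group, no difference between conditions could be tested, and no p-values are given; the labels do not say whether each library came from its own animal. In bulk samples, fewer cells of a type and less RNA per cell cannot be told apart.

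The nuclear envelope is tied to the cytoskeleton by the LINC complex, in which a nesprin in the outer nuclear membrane binds a SUN protein of the inner membrane across the space between them. The cytoplasmic parts of the nesprins differ: the giant forms of nesprin-1 (Syne1) and nesprin-2 (Syne2) bind actin, nesprin-3 (Syne3) binds plectin and through it intermediate filaments such as keratins, and nesprin-4 (Syne4) binds the motor kinesin-1. On the inside, SUN proteins contact the lamina, a meshwork of A-type (Lmna) and B-type (Lmnb1, Lmnb2) lamins, and emerin is an inner membrane protein that binds lamins. In mouse keratinocytes the bridge is known for its part in nuclear position and cell adhesion.

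What makes a nesprin part of this bridge is the KASH domain at its C-terminus, whose last residues insert into the SUN protein. The last 90 coding bases of the 3 nesprin genes with a row are shown because this end is the feature they share, whereas the rest of their coding sequences differs greatly in length. Each sequence is from the longest coding transcript of GENCODE vM21 (GRCm38), is written 5′ to 3′ on the gene's strand and ends with the stop codon. Capitals mark the 12 bases before the stop codon, which code for the end that inserts into the SUN protein.
Syne1: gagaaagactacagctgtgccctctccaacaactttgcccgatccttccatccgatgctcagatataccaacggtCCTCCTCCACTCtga
Syne3: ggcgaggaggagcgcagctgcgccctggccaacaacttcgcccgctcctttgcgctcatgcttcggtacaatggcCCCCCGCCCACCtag
Syne4: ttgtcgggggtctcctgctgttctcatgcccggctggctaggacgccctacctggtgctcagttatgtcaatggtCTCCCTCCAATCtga
These stretches lie at chr10:5022007-5022096 (minus strand), chr12:104932165-104932254 (minus strand) and chr7:30318912-30319001 (plus strand), each within a single exon. In a global alignment Syne1 and Syne3 had the same base at 59 of 93 aligned positions (63.4%), Syne1 and Syne4 at 53 of 93 (57.0%), and Syne3 and Syne4 at 50 of 93 (53.8%). Not every annotated transcript holds this end. Of the coding transcripts with an annotated stop codon, it closes 2 of 3 for Syne1, all 3 for Syne3 and 2 of 4 for Syne4. The 4 of Syne4 include Syne4-212, which is annotated as a target of nonsense-mediated decay and lacks this end. A further 2 coding transcripts of Syne1 and 2 of Syne4 have no annotated stop, so their end is not known. The counts are given per gene, so they do not say which share of the Syne1 reads came from transcripts with a KASH end.

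Mouse library totals were 52499080, 53465434 and 52970733 counts in libraries 1, 2 and 3. Rows under an Ensembl identifier, to which all 4 genes belong, held 11.2% ± 0.489 (SD, n = 3) of these counts, and the rest lay in 11689 assembled loci without a gene name. A row was held by 40% of the nuclear envelope genes and by 66.5% of the 21951 annotated protein-coding genes. The levels below are those of a gene's own row; reads assigned to assembled loci are not in them. The libraries stood apart in several respects. The Y-linked gene Ddx3y had 3483, 0 and 0 counts in libraries 1, 2 and 3, genes of mitosis were lowest in library 3, and leukocyte markers, on few counts, were highest there, with values given beside the genes below. Keratinocyte identity could be checked by few genes: of 14 basal markers only Itga2, an integrin subunit, had a row (48.3 ± 5.58 CPM, SD, n = 3), and of 12 suprabasal markers only Tgm3, a transglutaminase (14.3 ± 3.97 CPM), and Krt2, a keratin (2.60 ± 0.578 CPM). Krt5, Krt14, Itga6 and Trp63 had no row.

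Syne1 (ENSMUSG00000096054; chromosome 10, 5020917 to 5551482, minus strand, GRCm38) encodes nesprin-1, a spectrin-repeat protein. It had 11141, 12199 and 10889 counts in libraries 1, 2 and 3. In CPM, the count per 1000000 counts of the library, these are 212, 228 and 206 CPM. The 3 libraries were close to each other, with library 2 highest: the coefficient of variation was 5.39%, where counting error alone would give 0.936%. Among 38 measured genes with a mean count within 2-fold of that of Syne1, itself included, the median coefficient of variation was 8.59%, and 76.3% of them varied more. No library of Syne1 lay as far as 1.5-fold from the other 2. On the log2 scale its deviations from the mean of the other 2 were −0.029, 0.13 and −0.098 in libraries 1, 2 and 3.

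The place of Syne1 among the named genes depended on its length. By CPM it was number 2 of 6595 measured protein-coding genes. Genes without a row, such as Krt5 and Krt14, are outside this rank and those below. The union of its annotated exons spans 40491 bases, the fourth longest among the 14578 protein-coding genes with a row. Per kilobase of exon its level was 5.24, 5.63 and 5.08 CPM in libraries 1, 2 and 3, a mean of 5.32 ± 0.287 (SD, n = 3), against a median of 2.11 over all measured protein-coding genes. That is rank 1262, above 80.9% of them. With the coding length of each gene in place of its exons the rank was 2927, above 55.6% of them. Among the 69 protein-coding genes with a row and at least 20 kilobases of exon, Syne1 was number 5 per kilobase. Above it were Mdn1, a ribosome assembly factor (7.03 ± 1.06 CPM per kilobase), Akap13 (6.52 ± 0.732), 4932438A13Rik (6.01 ± 0.659) and Chd9, a chromatin remodeller (5.68 ± 0.166), and next below it Ube3a, a ubiquitin ligase (5.17 ± 0.262; SD, n = 3 each). The 3 library values of Syne1 overlapped those of 4932438A13Rik (5.26 to 6.49), Chd9 (5.51 to 5.84) and Ube3a (4.89 to 5.42), while every library value of Mdn1 and Akap13 was above them.

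**Figure D1:**
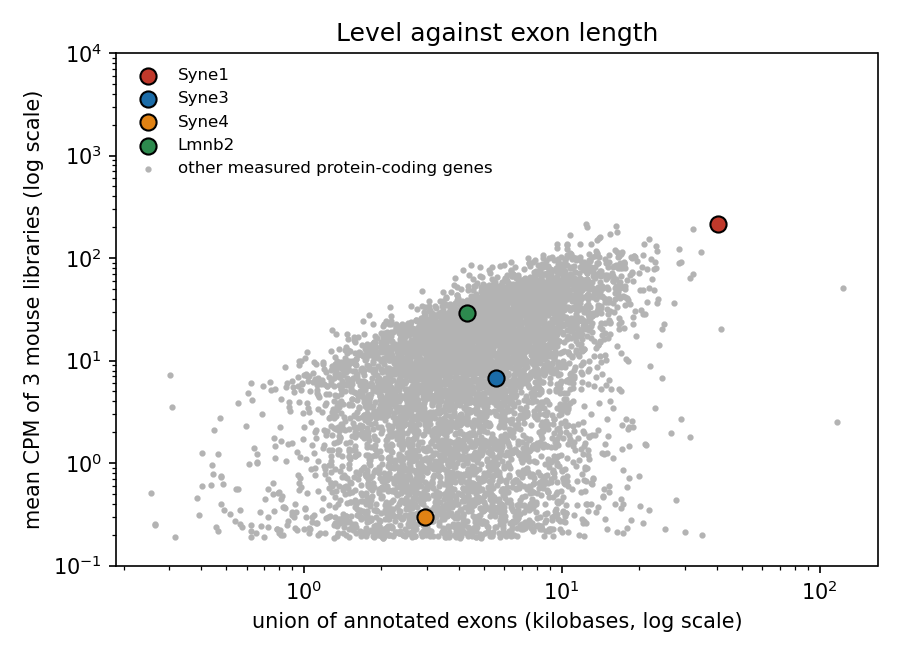
Mean CPM of the 3 mouse libraries against the union of annotated exons in kilobases, both on log scales, for 6595 measured protein-coding genes, with Syne1, Syne3, Syne4 and Lmnb2 in colour. Syne1 lies at the upper right, with 40.5 kilobases of exon and 215 CPM, and Lmnb2 has 29.2 CPM on 4.29 kilobases.

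The annotation of Syne1 holds 9 transcripts of 2726 to 27908 bases. Its exon union is longer than the longest of them because it includes retained introns and alternative ends. Divided by that transcript instead, the level of Syne1 was 7.72 ± 0.416 CPM per kilobase (SD, n = 3). The genomic span contains 4 other annotated genes, 2 of them on the same strand, with rows of their own and few counts. Gm25694, annotated as a ribozyme, had 4, 4 and 21 counts, and the pseudogene Gm48836 had 2, 2 and 1. On the opposite strand Gm10097 had 71, 48 and 42 counts and the small nuclear RNA gene Gm23573 had 0 in each library. No annotated gene overlaps Syne3, Syne4 or Lmnb2.

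The 5 genes whose level per kilobase was most like that of Syne1 were Abcd4, Atg14, Pank1, Fbxw2 and Zxdc. The measure was the root mean square difference of log2 CPM per kilobase over the 3 libraries, taken over 1966 protein-coding genes with a mean of at least 1000 counts. It ran from 0.022 for Abcd4 to 0.037 for Zxdc. Abcd4, an ABC transporter gene, had 5.34, 5.59 and 5.16 CPM per kilobase in libraries 1, 2 and 3. These genes have 4322 to 9501 bases of exon, and their CPM, from 23.0 for Atg14 to 51.0 for Fbxw2, was below that of Syne1. With 3 libraries of a single group, this measure says little beyond a like level.

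Syne3 (ENSMUSG00000054150; chromosome 12, 104929933 to 105009809, minus strand) encodes nesprin-3, the plectin-binding nesprin. It had 460, 398 and 213 counts in libraries 1, 2 and 3. This is 8.76, 7.44 and 4.02 CPM, with exact 95% Poisson intervals of 7.98 to 9.60, 6.73 to 8.21 and 3.50 to 4.60, which cover counting error only. Library 3 was the lowest and its interval does not reach those of the other 2, which overlap each other. The coefficient of variation was 36.3%, against 5.29% from counting error and a median of 12.2% among 2193 genes with a mean count within 2-fold of that of Syne3, of which 4.51% varied more.

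Library 3 held 0.498 times the Syne3 level of the other 2 libraries, a log2 deviation of −1.004. Over all measured genes the median deviation of library 3 was −0.098, and 62.2% of genes were lower there than in the mean of the other 2. At least 1.5-fold deviations in library 3 occurred in 23.5% of the 9965 measured genes and in 11.2% of the genes of like count. A deviation as low as that of Syne3 occurred in 6.75% of all measured genes and in 2.28% of those of like count. In library 1 Syne3 lay 1.60-fold above the mean of the other 2 (log2 deviation 0.68), where 22.4% of all measured genes and 7.8% of those of like count were at least 1.5-fold away. This value rests on library 3: against library 2 alone it was 0.23. Library 3 was lower than library 2 alone by a log2 deviation of −0.89 and than library 1 alone by −1.12. In library 2, where 18.6% of all measured genes and 4.33% of those of like count were at least 1.5-fold away, the deviation of Syne3 was 0.33.

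Genes of mitosis, like Syne3, were low in library 3. All 9 of the 12 listed mitosis genes that had a row were at least 1.5-fold lower in library 3 than in the mean of the other 2, where 23.5% of all measured genes were that far away in either direction, with deviations from −1.64 to −0.63 and a median of −1.19. The summed level of the list was 169, 139 and 62.2 CPM in libraries 1, 2 and 3. All 4 measured leukocyte markers were at least 1.5-fold higher in library 3, on few counts, with a median deviation of 1.11: Ptprc had 24, 41 and 48 counts in libraries 1, 2 and 3, Cd3g 6, 29 and 37, Itgam 78, 48 and 105, and Lyz2 0, 0 and 59. The part of either list in the value of Syne3 was not tested. The deviation of library 3 stayed between −1.12 and −0.89 under every scaling, added count and left-out library tried.

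**Figure D2:**
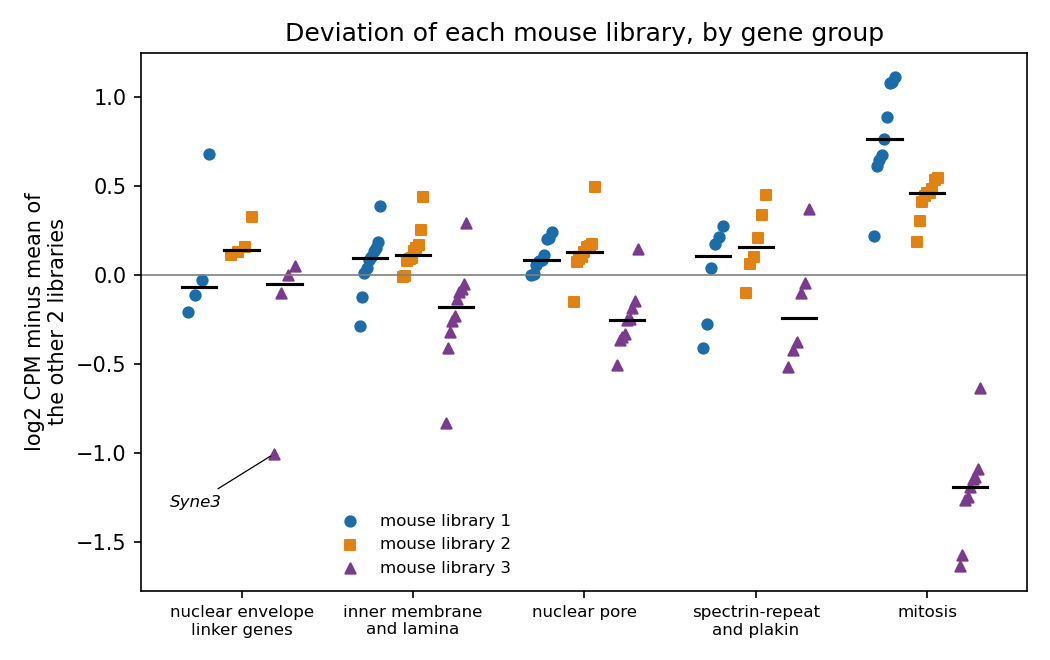
Log2 CPM of each mouse library minus the mean of the other 2 libraries, for the 4 nuclear envelope genes with a row and for the measured genes of 4 lists (10 inner membrane and lamina, 9 nuclear pore, 6 spectrin-repeat and plakin, 9 mitosis). Points are genes and black bars are medians. Syne3 in library 3 lies at −1.004, inside the range of the mitosis genes and below every inner membrane and pore gene. Of all measured genes 6.75% were as low there or lower.

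Syne4 (ENSMUSG00000019737; chromosome 7, 30314807 to 30319046, plus strand) encodes nesprin-4, the kinesin-binding nesprin known from hair cells and secretory epithelia. It had 14, 17 and 16 counts in libraries 1, 2 and 3, or 0.267, 0.318 and 0.302 CPM. The Poisson intervals, 0.146 to 0.447, 0.185 to 0.509 and 0.173 to 0.491 CPM, overlap throughout, so no difference between libraries was detectable at this depth. Per kilobase of exon Syne4 had 0.1003 ± 0.00891 CPM (SD, n = 3), above 7.92% of the measured protein-coding genes.

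Lmnb2 (ENSMUSG00000062075; chromosome 10, 80901203 to 80918245, minus strand) encodes lamin B2, a B-type lamin of the nuclear lamina. It was the only lamin gene with a row. It had 1458, 1644 and 1547 counts, or 27.8, 30.7 and 29.2 CPM, in libraries 1, 2 and 3. Library 2 was the highest, as for Syne1, and the coefficient of variation was 5.09%, with 2.54% from counting error and a median of 7.84% among 2150 genes of like count. In library 3, where Syne3 was lowest, the deviation of Lmnb2 was −0.00087. Per kilobase of exon Lmnb2 had 6.82 ± 0.347 CPM (SD, n = 3), above 89.9% of the measured protein-coding genes.

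Per kilobase of exon the order of the 4 genes was Lmnb2, Syne1, Syne3, Syne4, and it was the same in each library. The library values of neighbours did not overlap: Lmnb2 had 6.48 to 7.17, Syne1 5.08 to 5.63, Syne3 0.725 to 1.58 and Syne4 0.0905 to 0.108 CPM per kilobase. Lmnb2 stood 1.28 ± 0.0537 times as high as Syne1 (SD, n = 3). The size of every step depends on the length used. This step is the least firm, since its library ranges do not stay apart under every length. With the longest transcript of each gene the ratio was 1.07 ± 0.0449 and the library ranges overlapped, 7.87 to 8.71 for Lmnb2 against 7.37 to 8.18 for Syne1, although Lmnb2 was the higher in 3 of 3 libraries. With the coding length the ratio was 1.94 ± 0.0814.

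**Figure D3:**
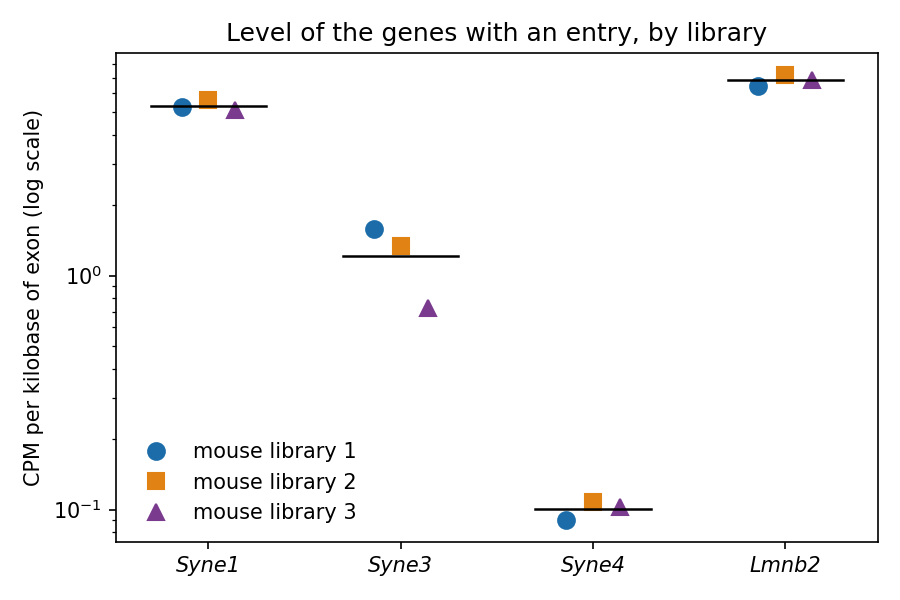
CPM per kilobase of exon (log scale) of Syne1, Syne3, Syne4 and Lmnb2; points are the 3 mouse libraries and black lines their means. The values of the 4 genes do not overlap, and library 3 is low for Syne3 (0.725 against 1.58 and 1.34 in libraries 1 and 2) while the other genes stay within 1.5-fold between libraries.

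Syne1 made up most of the nesprin level that could be read. Of the summed CPM per kilobase of exon of the 3 nesprin genes with a row, Syne1 held 75.8%, 79.5% and 86.0% in libraries 1, 2 and 3, Syne3 22.9%, 18.9% and 12.3%, and Syne4 1.31%, 1.52% and 1.74%. Syne2, the other giant nesprin gene, is not in these sums. The ratio of Syne1 to Syne3 per kilobase of exon was 3.32, 4.20 and 7.00 in libraries 1, 2 and 3. Syne1 itself had 5.24, 5.63 and 5.08 CPM per kilobase there, and Syne3 1.58, 1.34 and 0.725. The ratio of Syne1 to Syne4 was 57.9, 52.2 and 49.5. These sizes depend on the length used. With exons the mean ratios of Syne1 to Syne3 and to Syne4 were 4.84 and 53.2. With the longest transcript they were 6.66 and 35.5, and with the coding length 3.91 and 32.2.

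**Figure D4:**
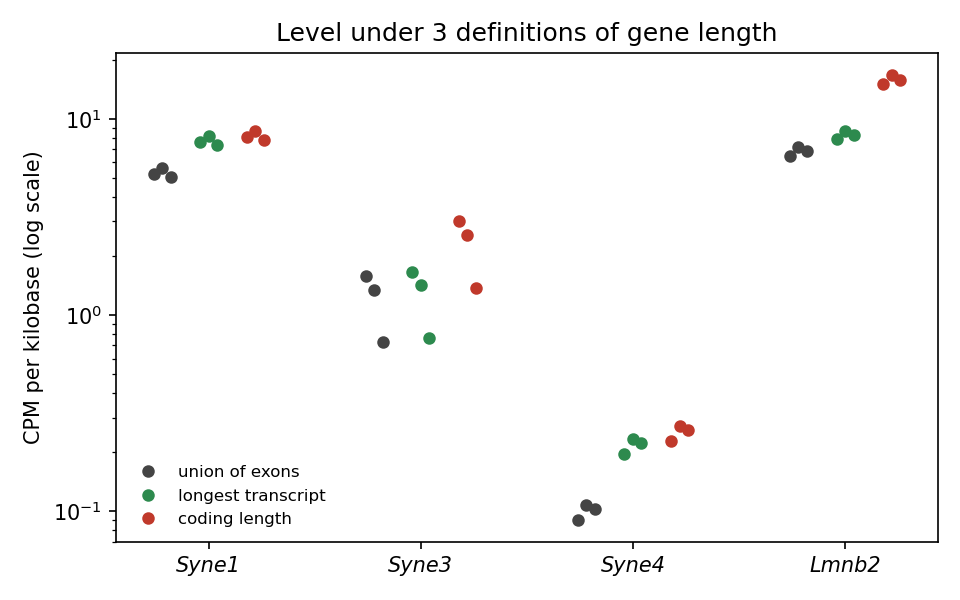
CPM per kilobase (log scale) of the 4 genes in the 3 mouse libraries, with the length taken as the union of exons, the longest annotated transcript or the coding length of the longest coding transcript. Every gene is higher with the shorter lengths, and Lmnb2 and Syne1 overlap only with the longest transcript.

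The other KASH and SUN genes were at or near 0. All 6 listed genes had a row. Lrmp, which encodes a KASH protein of the endoplasmic reticulum, had 16, 32 and 31 counts in libraries 1, 2 and 3. Ccdc155, the meiotic KASH gene, had 0, 26 and 7 counts. Of the SUN genes best known from testis, Spag4 had 20, 12 and 0 counts, Sun3 0, 0 and 27, and Sun5 0 in each library. Mrvi1 also had 0 in each. Counts this low changed from library to library without a common order.

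Listed genes of the inner nuclear membrane, lamina and nuclear pore covered a wide range of levels, from 0.072 CPM per kilobase for the pore gene Nup210 to 10.6 for Ankle2. Of 20 listed inner membrane and lamina-associated genes 10 had a row, and all 10 were measured. The highest per kilobase were Ankle2, a LEM-domain protein of nuclear envelope reassembly, at 10.6 ± 0.426 CPM per kilobase, the torsin ATPase genes Tor1b at 8.67 ± 0.326 and Tor1a at 7.61 ± 0.539, and Mfsd10 at 8.27 ± 1.03 (SD, n = 3 each). Of 29 nuclear pore genes 9 had a row, led by Pom121, a membrane-anchored nucleoporin, at 8.72 ± 1.22 CPM per kilobase, Nup50 at 7.69 ± 0.781 and Nup107, of the pore's outer ring, at 6.39 ± 0.468. Of these 19 genes together, 9 were above Syne1, 7 above Lmnb2 and 3 below Syne3 per kilobase. None of the 6 listed genes of lamin processing, such as Zmpste24, had a row.

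None of these 19 genes was as low in library 3 as Syne3, against 6.75% of all measured genes. With 19 genes, a count of none is close to that share. Of the 19 genes 17 were lower in library 3 than in the mean of the other 2, against 62.2% of all measured genes. Their deviations ran from −0.83 to 0.29. The medians were −0.18 for the inner membrane list and −0.25 for the pore list, and −0.098 for all measured genes. With the libraries scaled to Ensembl rows alone, 6 of 10 inner membrane genes and 8 of 9 pore genes were lower, against 48.3% of all measured genes. Ankle1, a LEM-domain nuclease gene, had the lowest deviation, with 89, 93 and 51 counts. It was the only one of the 19 at least 1.5-fold lower, and none was that far higher. Of all measured genes 23.5% were at least 1.5-fold away in either direction in library 3. Tmem38a was higher in library 3, by less than 1.5-fold, with 529, 614 and 699 counts.

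Few cytoskeletal relatives and partners could be read. Of 25 spectrin-repeat and plakin genes 9 had a row and 6 were measured; Plec, Macf1 and Dst were not analysed here. Trio, a guanine nucleotide exchange factor with spectrin repeats, had 131, 121 and 96.9 CPM in libraries 1, 2 and 3, and a level of 4.97 ± 0.747 CPM per kilobase, close to that of Syne1. The spectrin gene Sptb had 0.776 ± 0.124 and the dystrophin gene Dmd 0.603 ± 0.119 CPM per kilobase, both below Syne3. Of 22 cytoplasmic partners 5 had a row. Pcm1, a centriolar satellite protein that lies at the nuclear envelope in muscle cells, had 11.9 ± 0.679 CPM per kilobase, Klc2, a light chain of kinesin-1, 3.18 ± 0.0442, and the formin gene Fhod3 1.21 ± 0.180 (SD, n = 3 each).

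Markers of skeletal muscle, a tissue in which nesprin-1 is prominent, were read along with those of other cell types. The sums below cover only genes with a row. The part of any of these cell types in the level of Syne1 was not tested. Of 14 listed muscle genes 13 had a row and 7 were measured. Their summed level was 7.07, 8.25 and 8.12 CPM in libraries 1, 2 and 3, with Myh1, Myh2, Myh4 and Tnnt3 at 0 in every library. Ttn, the giant muscle protein titin, had 146, 116 and 139 counts, or 0.0216 ± 0.00272 CPM per kilobase (SD, n = 3). Markers of neurons and Schwann cells, another source of nesprin-1 transcripts, summed to 1.49, 1.83 and 1.23 CPM over the 5 of 9 genes with a row, with Snap25 and Rbfox3 at 0. Most of this sum came from Syt1, with 66, 75 and 44 counts. Endothelial markers summed to 2.72, 2.23 and 1.40 CPM over 7 of 8 genes, with Kdr, Cdh5, Emcn and Tie1 at 0. Flt1, with 129, 105 and 63 counts, gave most of the endothelial sum. Melanocyte markers summed to 10.2, 10.04 and 8.12 CPM over 6 of 7 genes, with Tyr and Mlana at 0. Nearly all of the melanocyte sum came from Mitf, with 507, 511 and 405 counts. Leukocyte markers summed to 2.06, 2.21 and 4.80 CPM over 5 of 8. Fibroblast markers summed to 50.1, 63.2 and 54.1 CPM over 5 of 8 genes, most of it from the collagen VI gene Col6a3, with Lum and Pdgfrb at 0.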

How the data were processed

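RNA from 3 mouse libraries was used. The authors deposited 1 table of raw counts per library, per the labels, with 54364 rows, of which 42675 carry an Ensembl identifier. Per the submitters' processing notes, TopHat2, Bowtie2, cutadapt and FastQC were used, with the build mm10; the counting program is not given in the sources used here. Identifiers were joined to GENCODE vM21 (GRCm38), which gave 42457 a symbol. Each count was divided by the library's total to give CPM, and by the kilobases of the union of annotated exons to give a level per length. A deviation is a library's log2 CPM less the average of the remaining libraries, with 0.5 added to each count. The calculation was also run on simulated counts with planted changes. Their noise was set beforehand and not fitted to these libraries, so this checks the calculation only. In 641, 644 and 601 rows of libraries 1, 2 and 3 the count was 1, and in 781, 757 and 788 it was 3, so the whole numbers may be derived from an estimated coverage, and Poisson intervals are approximate. The libraries differed from each other by more than sampling noise (chi-square per row of 29.7 to 57.0), so the counts of no library were a copy of another's. The comparison does not say whether the libraries came from separate animals. The Y-linked gene Ddx3y had counts in library 1 only, so library 1 held male cells and differed in this from libraries 2 and 3. Libraries 2 and 3 cannot be told apart by this gene.

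The 10 genes and the lists were chosen with earlier results of these data known. Named genes are the 10, up to 4 of the highest per kilobase in each list, genes at least 1.5-fold from the other libraries, and the 5 nearest to Syne1; further list genes, long genes and overlapping genes were named after their values were seen. Alternatives were other library scales, including TMM factors from edgeR 4.0.16 in R 4.3.3, other lengths, minimum counts and added counts, and leaving out each library. Tables were handled in pandas 2.3.3 under Python 3.11.15, intervals came from scipy 1.17.1 and figures from matplotlib 3.10.9.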

Additional observations from a re-analysis of the deposited data

How the results depend on the processing

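Of 117 alternative values for 19 results, 101 stayed within the spread between libraries (for counts and ranks, within 1.5 times) and 16 moved further; none of the deviations of at least 1.5-fold reversed. No paired analysis was possible because the 3 mouse libraries form a single group. Scaled to Ensembl rows alone, the levels per kilobase were 47.5 for Syne1, 10.8 for Syne3, 0.898 for Syne4 and 61.1 for Lmnb2, by construction, since the total is smaller. With the longest transcript as length they were 7.72 for Syne1, 0.218 for Syne4 and 8.28 for Lmnb2, and with the coding length 8.16 for Syne1, 2.31 for Syne3, 0.254 for Syne4 and 15.8 for Lmnb2. With the coding length Syne1 ranked 2927 among measured protein-coding genes. At a minimum of 50 counts 3 of the 4 genes counted as measured, since Syne4 lay below it. Ensembl scaling moved all deviations of library 3 by 0.11, which turned that of Syne1 from −0.098 to 0.012 and gave 0.11 for Lmnb2. Under it the deviation of Syne3 in library 3 was −0.89, and with TMM factors −0.94. Without library 3 that of Syne3 in library 2 was −0.23. Depth limits Syne4 and the other KASH and SUN genes, which rest on few counts.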
